A study of Mus musculus with 12 samples.

Results

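The unfolded protein response and the chaperones of the endoplasmic reticulum (ER) were followed through 34 genes, listed by symbol, of the 19938 genes measured on the arrays. By role the 34 comprised 3 stress sensors, 4 transcription factors, 11 chaperones and co-chaperones, 3 protein disulfide isomerases, 7 genes of ER-associated degradation, 5 stress outputs and 1 translocon-associated gene. Each gene was read from a probe set annotated with that gene alone, and where several existed from the one with the highest mean over the 12 samples. All 34 symbols were found, and no gene was removed for low signal.

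Mouse embryonic fibroblasts of strain C57BL6 were taken at embryonic day 14 and grown in medium with 10% serum. They were wild type (WT) or D1D2KO, which lacked DGAT1 and DGAT2, the acyltransferases that make triacylglycerol from diacylglycerol. For undifferentiated cells the labels list the growth medium alone. Differentiated cells, labelled as adipocytes, were exposed from 2 days after confluence to 1 µM dexamethasone, 500 µM isobutylmethylxanthine, 5 µg/ml insulin and 15 µM troglitazone for 2 to 3 days, then to the same insulin and troglitazone for 2 days, and then to plain growth medium until harvest. Each of the 4 combinations of genotype and state had 3 samples. The series text calls them biological replicates without naming the embryo or culture of each sample, so the p-values below measure the spread between these samples. The labels do not say how the alleles were made or when after the last medium change the cells were harvested.

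The ER folds secreted and membrane proteins, and unfolded protein in its lumen is sensed by the membrane proteins IRE1 (gene Ern1), PERK (gene Eif2ak3) and ATF6. IRE1 splices the Xbp1 mRNA, PERK phosphorylates the translation factor eIF2 and so favours ATF4 and its target CHOP (gene Ddit3), and ATF6 is cut in the Golgi to release a transcription factor. These factors raise the transcription of chaperones, of disulfide isomerases and of the machinery that extracts misfolded protein for degradation. Saturated fatty acids and disturbed membrane lipids are known to activate the sensors, and triacylglycerol synthesis is known as a sink for fatty acids. The comparison of genotypes addresses whether the mRNAs of this response differ in cells deficient in that synthesis. The arrays report total Xbp1 mRNA, not its splicing, and neither eIF2 phosphorylation nor ATF6 cleavage.

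Values are log2 array signals as deposited, so a difference of 1 is a 2-fold change, and a signal is compared between samples and not between genes. Array medians lay between 5.61 and 5.69, and samples of a group correlated at 0.993 to 0.997. Differences were tested with limma, two-sided, with Benjamini-Hochberg adjustment over 19938 genes, and a gene was called at an adjusted p under 0.05. Dgat1 signal in D1D2KO was 39.4% of WT in undifferentiated and 38.2% in differentiated cells, and Dgat2 signal 72.0% and 31.4%, all 4 differences being called. Of 10 fibroblast markers 8 fell on differentiation in WT and 9 in D1D2KO, and 9 of 9 adipocyte markers rose in both genotypes. The log2 of the summed adipocyte marker signal went from 10.52 to 10.63 in WT and 10.53 to 10.56 in D1D2KO before differentiation to 14.24 to 14.41 and 14.51 to 14.72 after it. Samples labelled as adipocytes retained fibroblast marker signal, at a summed log2 of 14.66 to 14.74 in WT and 14.34 to 14.47 in D1D2KO, against 15.14 to 15.18 in the 6 undifferentiated samples.

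Promoters of many ER chaperone genes share a short element through which ATF6 and XBP1 act. This ER stress response element (ERSE) was searched as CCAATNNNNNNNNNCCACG on both strands, in RefSeq windows (build GRCm38.p6) from 250 bases before to 50 bases after each gene start. Of the 34 genes 30 had a window, with 31 windows in all, and those of Atf6, Derl1, Hyou1 and Manf were not used here. ERSE letters stood in the windows of 9 genes, or 29% of the 31 windows, against 0.119% of all 32851 windows of the same length. All windows include the 31. The 34 genes were listed as genes of this response, so shares of this and the other elements are a description and not a test. The 10 matches are shown because the responses of these 9 genes are set against the others further on. They are turned to read from CCAAT, and capitals mark the fixed letters of the element.
Hspa5 (chr2:34772025-34772043): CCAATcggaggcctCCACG
Hsp90b1 (chr10:86705638-86705656): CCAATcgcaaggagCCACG
Hsp90b1 (chr10:86705533-86705551): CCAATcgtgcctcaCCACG
Dnajc3 (chr14:118937827-118937845): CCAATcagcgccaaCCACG
Calr (chr8:84847075-84847093): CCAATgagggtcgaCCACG
Canx (chr11:50325800-50325818): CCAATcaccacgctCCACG
Creld2 (chr15:88819520-88819538): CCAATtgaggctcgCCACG
Pdia6 (chr12:17266491-17266509): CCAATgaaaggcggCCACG
Syvn1 (chr19:6046532-6046550): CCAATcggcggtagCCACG
Derl3 (chr10:75893242-75893260): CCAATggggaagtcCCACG
The 9 genes include the main luminal chaperones BiP (Hspa5) and GRP94 (Hsp90b1), both lectin chaperones, an isomerase and 2 genes of degradation.

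The 4 promoters below, the 150 bases before each start, show how 4 of the genes differ in these letters. Of these, Ddit3 and Dnajb9 were called between the genotypes, and Hspa5 and Herpud1 were called in no contrast. Hspa5, which encodes BiP, is the standard reporter of the response and holds an ERSE, in capitals, on the plus strand. Herpud1, a degradation scaffold, holds the shorter element ERSE-II, ATTGGNCCACG, found in 6.45% of the windows of the 34 genes and in 0.0365% of all windows. It also holds the amino acid response letters TGATGNAA, read by ATF4 and its partners, here on the opposite strand. Both are in capitals.
Hspa5 (chr2:34771940-34772089): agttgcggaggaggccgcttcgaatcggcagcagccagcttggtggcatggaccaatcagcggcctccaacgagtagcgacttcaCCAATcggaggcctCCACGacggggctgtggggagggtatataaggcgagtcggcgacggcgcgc
Herpud1 (chr8:94386279-94386428): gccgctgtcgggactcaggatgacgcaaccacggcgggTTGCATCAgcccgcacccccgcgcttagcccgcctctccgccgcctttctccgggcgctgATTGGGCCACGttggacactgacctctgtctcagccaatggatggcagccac
Ddit3 and Dnajb9, the genes with the largest increase in differentiated D1D2KO cells relative to WT, held none of the 4 longer elements searched in their windows, which says only that these letters are not there. The Dnajb9 gene lies on the minus strand, and its promoter is printed as the gene reads.
Ddit3 (chr10:127290643-127290792): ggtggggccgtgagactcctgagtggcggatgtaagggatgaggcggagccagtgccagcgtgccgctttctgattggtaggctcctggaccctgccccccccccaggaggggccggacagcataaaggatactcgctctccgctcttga
Dnajb9 (chr12:44210069-44210218): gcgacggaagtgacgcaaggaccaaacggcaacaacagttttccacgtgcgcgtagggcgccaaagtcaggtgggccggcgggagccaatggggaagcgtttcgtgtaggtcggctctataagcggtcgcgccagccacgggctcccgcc
The amino acid response letters occurred in 5 windows, those of Asns, Atf3, Chac1, Herpud1 and Trib3, or 16.1% against 3.97% of all windows. The ERSE-II letters occurred in Herpud1 and Dnajb11. The letters TGACGTGG, linked to XBP1 and ATF6, occurred in 0 of the 31 windows against 0.676% of all windows. The core CCACG, which is part of ERSE and ERSE-II, stood in 77.4% of the 31 windows and in 32.8% of all.

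**Figure D1:**
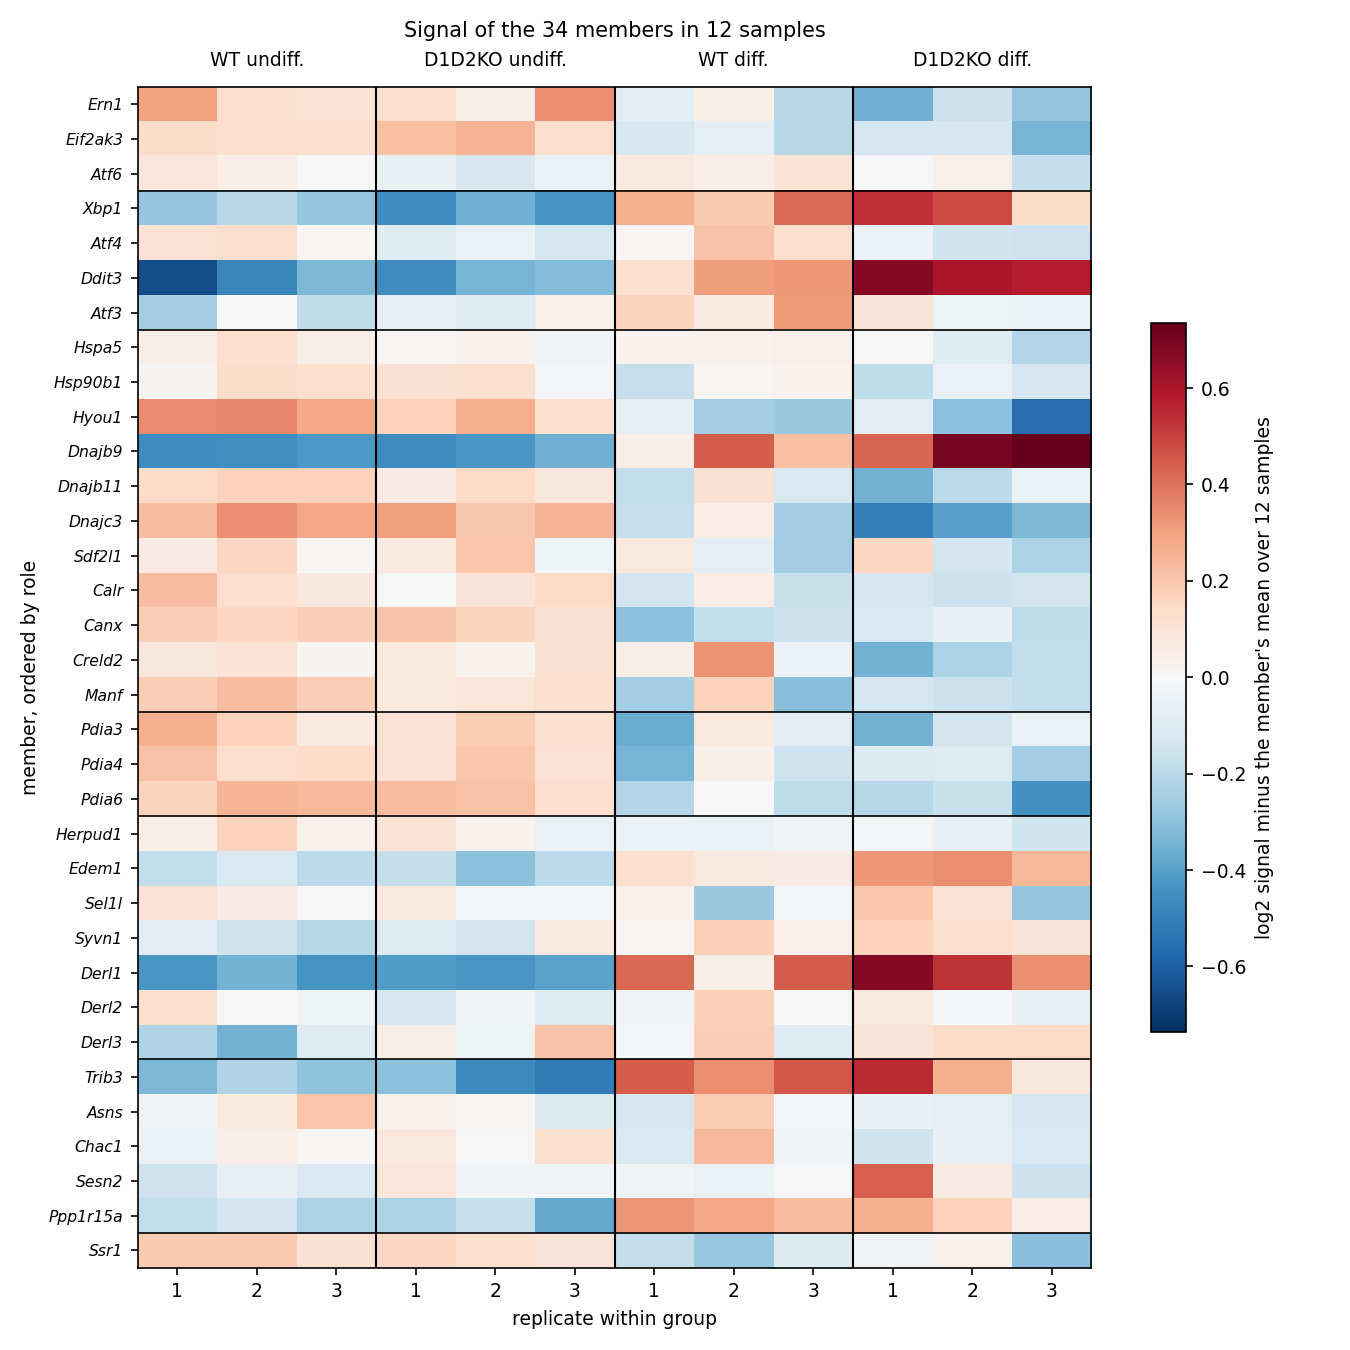
Log2 signal of the 34 genes in the 12 samples, each gene shown as the difference from its own mean over the 12 samples, with genes ordered by role and samples by group. Ddit3, Dnajb9, Xbp1, Derl1 and Trib3 were higher in all 6 differentiated samples than in all 6 undifferentiated ones, and the 3 disulfide isomerases were lower in the D1D2KO differentiated samples than in the undifferentiated samples of either genotype.

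Before differentiation no gene of the response was called between the genotypes. Of the 34 genes 0 passed, against 8.02% of all genes in either direction, and limma gave an unadjusted p under 0.05 for 2 of them. It gave one for 5513 of all 19938 genes, a larger share. The median difference, D1D2KO minus WT, was -0.03 over the 34 genes and 0.02 over all genes. Of the 2, Atf4 was at 8.70, 8.79 and 8.82 in WT and 8.56, 8.60 and 8.64 in D1D2KO, a difference of -0.17 (SE 0.08, adjusted p = 0.172). The 3 D1D2KO samples lay below the 3 WT samples. Derl3, which encodes a derlin of the retrotranslocation channel, was at 5.05, 5.17 and 5.30 in WT and 5.36, 5.44 and 5.60 in D1D2KO, a difference of 0.29 (SE 0.09, adjusted p = 0.0665). Its signal was below the median of the arrays in all 6 samples, and its difference was called when WT undifferentiated replicate 3 was left out (0.35, adjusted p = 0.0430) or WT differentiated replicate 2 (adjusted p = 0.0453).

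BiP mRNA (Hspa5) stood at 11.41, 11.42 and 11.49 in undifferentiated WT and at 11.35, 11.38 and 11.40 in undifferentiated D1D2KO. The D1D2KO samples were the lower ones without overlap, by 0.07 with a 95% confidence interval of -0.23 to 0.10. Over the 34 genes the intervals reached from -0.37, for Xbp1, to 0.49, for Derl3, so changes of up to 1.41-fold for Derl3 and smaller ones for the others lie within them. The undifferentiated genotypes differed in other cell markers, with 6 of 6 smooth muscle genes lower in D1D2KO (median -1.48, summed log2 13.68 to 13.77 in WT and 12.92 to 13.12 in D1D2KO). Of 8 cardiac and skeletal muscle genes 4 were higher and 1 lower. Their part in these values was not tested, and in bulk samples fewer cells of a type and less RNA per cell cannot be told apart.

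After differentiation the 2 genotypes differed in 4 of the 34 genes, against 13.7% of all genes. CHOP (Ddit3) and the co-chaperone ERdj4 (Dnajb9) were higher in D1D2KO, by 1.29-fold and 1.30-fold, and the co-chaperone p58IPK (Dnajc3) and the stress-induced ER protein Creld2 were lower, at 81.6% and 77.7% of WT. The 2 genes higher compare with 6.25% of all genes called higher, and the 2 lower with 7.42% called lower. In neither direction were the 34 genes called more often than all genes. The median difference over the 34 genes was -0.05, and 0.03 over all genes. BiP, GRP94, the lectin chaperones and the 3 disulfide isomerases were not called.

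**Figure D2:**
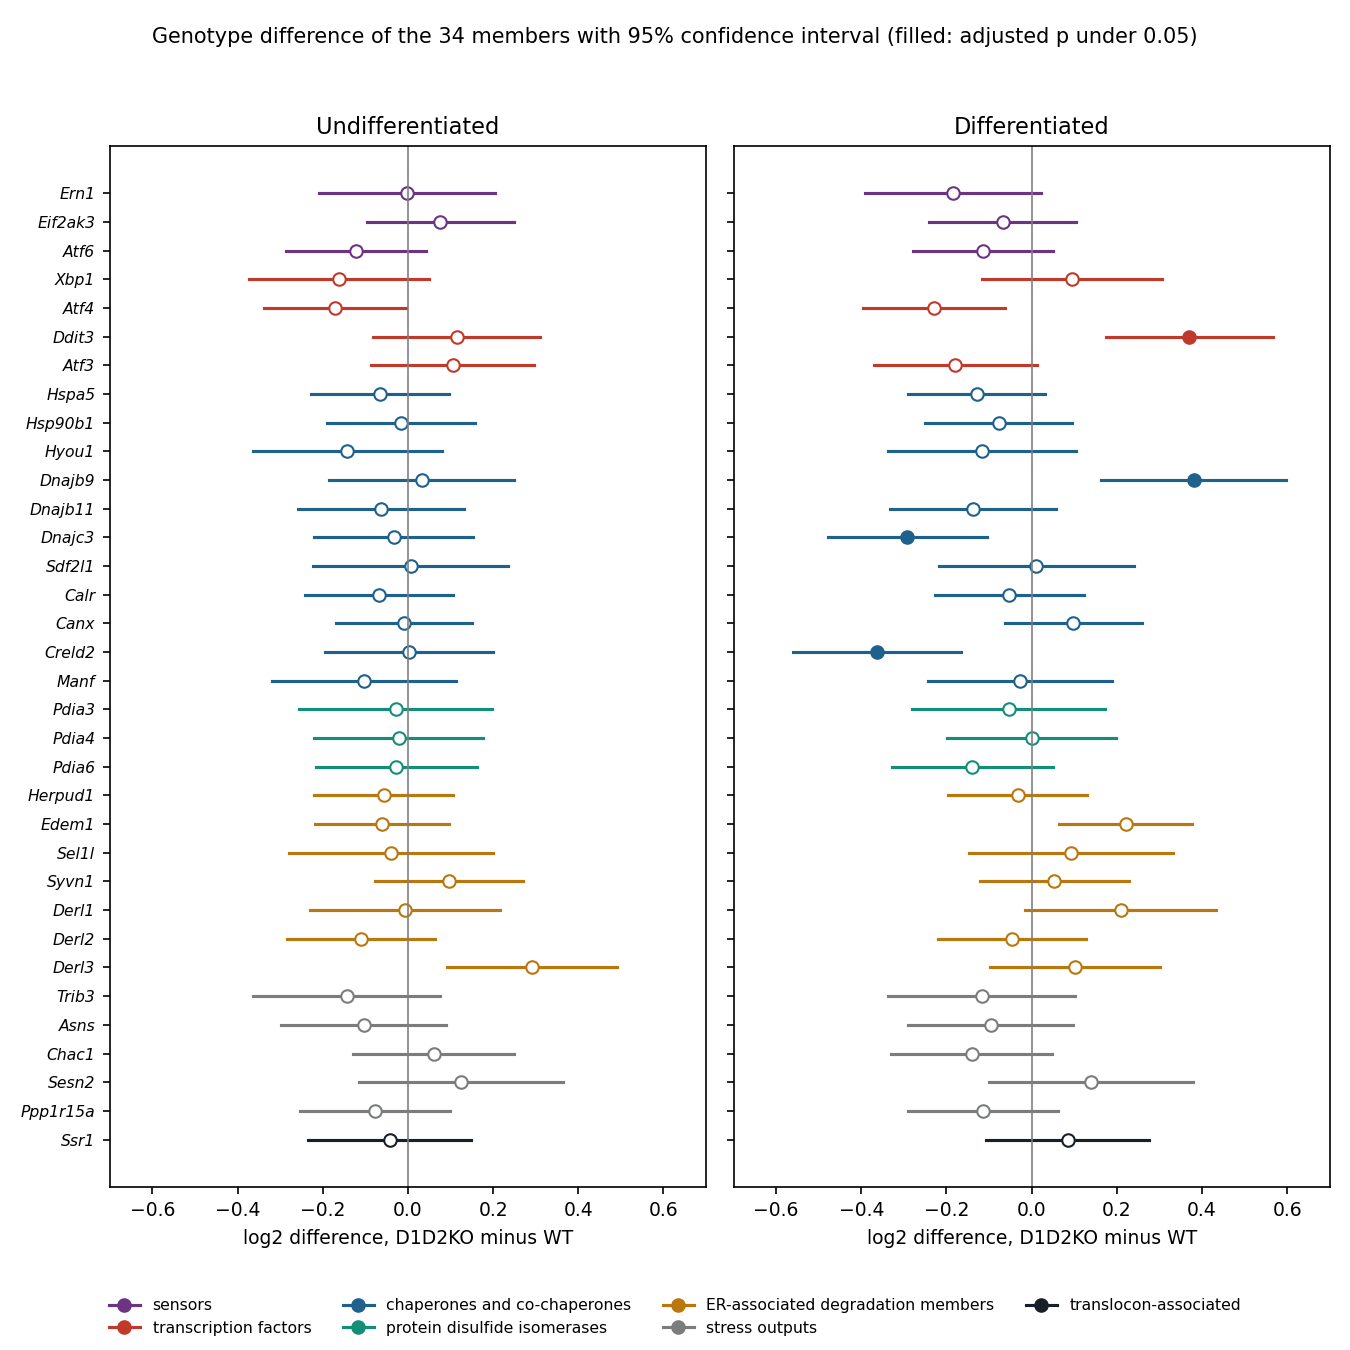
Difference in log2 signal, D1D2KO minus WT, for the 34 genes in undifferentiated (left) and differentiated (right) cells, with 95% confidence intervals, coloured by role. Filled points are the 4 differences with an adjusted p under 0.05, which are Ddit3 and Dnajb9 to the right of 0 and Dnajc3 and Creld2 to the left, all in differentiated cells.

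Ddit3 encodes CHOP, a transcription factor of prolonged ER stress that also pairs with C/EBP factors. Its signal in differentiated cells was 8.00, 8.19 and 8.20 in WT and 8.46, 8.48 and 8.55 in D1D2KO. The groups did not overlap, and the difference was 0.37 (SE 0.09, adjusted p = 0.0158). Before differentiation the signals were 7.23, 7.40 and 7.55 in WT and 7.42, 7.54 and 7.56 in D1D2KO, and these overlapped.

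Dnajb9 encodes ERdj4, a BiP co-chaperone that restrains IRE1 and assists degradation. Its signal was 8.64, 8.81 and 9.03 in differentiated WT and 9.01, 9.29 and 9.32 in differentiated D1D2KO, a difference of 0.38 (SE 0.10, adjusted p = 0.0235). The highest WT sample exceeded the lowest D1D2KO sample. In undifferentiated cells all 6 samples lay between 8.12 and 8.23.

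Dnajc3 encodes p58IPK, a luminal co-chaperone that also inhibits PERK. Its signal was 9.77, 9.85 and 10.07 in differentiated WT and 9.51, 9.61 and 9.68 in differentiated D1D2KO, a difference of -0.29 (SE 0.09, adjusted p = 0.0382). The groups did not overlap, and a further Dnajc3 probe set listed the same values in every sample.

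Creld2 encodes an ER protein with disulfide isomerase activity that is induced by ER stress. Its signal was 7.60, 7.68 and 7.97 in differentiated WT and 7.29, 7.41 and 7.46 in differentiated D1D2KO, a difference of -0.36 (SE 0.09, adjusted p = 0.0186). All D1D2KO samples lay below all WT samples, while 1 WT sample, replicate 2, stood well above the other 2.

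**Figure D3:**
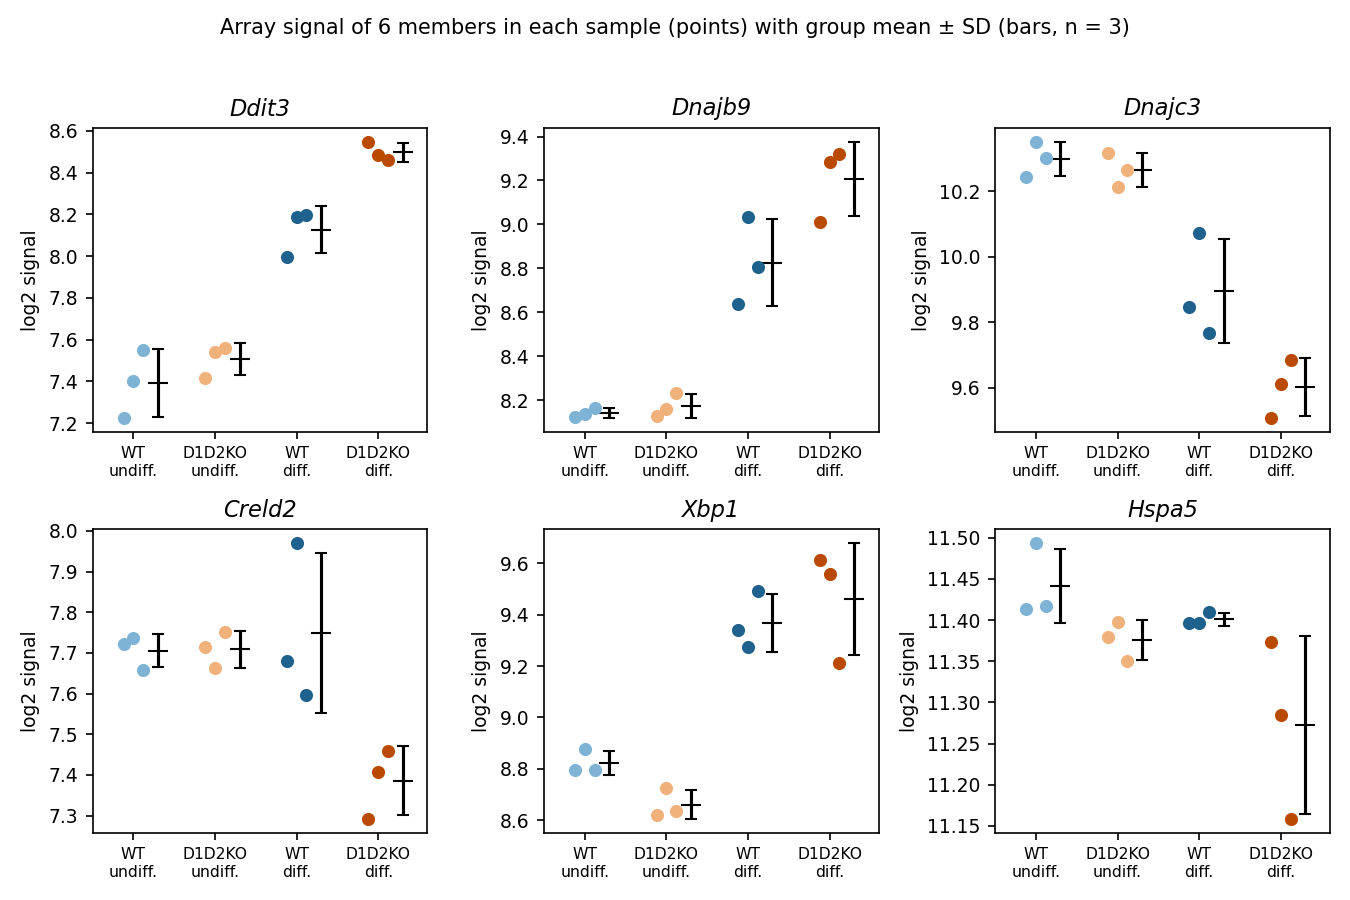
Log2 signal of Ddit3, Dnajb9, Dnajc3, Creld2, Xbp1 and Hspa5 in each of the 12 samples (points), with the mean and SD of each group of 3 (bars). Ddit3 in D1D2KO differentiated cells, at 8.46 to 8.55, lies above WT differentiated cells, at 8.00 to 8.20, whereas Hspa5 spans 11.16 to 11.49 over all samples.

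These 4 calls were close to the threshold. None of the 4 passed a 2-fold minimum. In the fits that left out 1 sample, Ddit3 was lost only without WT differentiated replicate 1 (0.31, adjusted p = 0.05001). Dnajb9 was lost without WT differentiated replicate 1 or 3 (adjusted p = 0.0736 and 0.0535) and without D1D2KO differentiated replicate 2 or 3 (0.0739 and 0.0807). Dnajc3 was lost without WT differentiated replicate 2 (0.153), D1D2KO undifferentiated replicate 1 or 2 (0.0513 and 0.0503) and D1D2KO differentiated replicate 1 or 2 (0.114 and 0.0756). Creld2 was lost without WT differentiated replicate 2 (0.0801) or D1D2KO differentiated replicate 1 (0.0642). With quantile normalization Dnajc3 (adjusted p = 0.0882) and Creld2 (0.0619) were lost, and with the fit restricted to the groups compared all but Ddit3 were lost (Dnajb9 0.0837, Dnajc3 0.119, Creld2 0.0756).

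A further 2 of the 34 genes had an unadjusted p under 0.05 in differentiated cells. ATF4 mRNA (Atf4) was at 8.70, 8.81 and 8.90 in WT and 8.53, 8.54 and 8.65 in D1D2KO, a difference of -0.23 (SE 0.08, adjusted p = 0.0638). The D1D2KO samples were the lower ones without overlap, in the direction opposite to its target Ddit3. Edem1, a lectin that hands misfolded glycoproteins to degradation, was at 8.89, 8.90 and 8.95 in WT and 9.08, 9.15 and 9.17 in D1D2KO, a difference of 0.22 (SE 0.07, adjusted p = 0.0570). Its groups did not overlap either. Both were called among genes above the median signal (Atf4 0.0330, Edem1 0.0268) and with trended and robust variance moderation (0.0420 and 0.0360), Edem1 also with quantile normalization (0.28, adjusted p = 0.0177) and Atf4 without WT differentiated replicate 1 (0.0388).

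BiP (Hspa5), the chaperone most used as an indicator of ER stress, was at 11.40, 11.40 and 11.41 in differentiated WT and at 11.16, 11.28 and 11.37 in differentiated D1D2KO. The D1D2KO samples were the lower ones, by 0.13 with a 95% confidence interval of -0.29 to 0.03. Xbp1 was at 9.27, 9.34 and 9.49 in WT and 9.21, 9.56 and 9.61 in D1D2KO. The groups overlapped, and the difference was 0.09 with an interval of -0.12 to 0.31. The PERK-branch outputs Trib3, a pseudokinase (-0.12), Asns, asparagine synthetase (-0.10), Chac1, a glutathione-degrading enzyme (-0.14), and Ppp1r15a, the eIF2 phosphatase subunit GADD34 (-0.11), were each below WT with intervals that included 0. Sesn2, an inhibitor of mTORC1 signalling, stood at 0.14 with an interval of -0.10 to 0.38. Over the 30 uncalled genes the intervals ran from -0.40 (Atf4) to 0.43 (Derl1), so a difference of up to 1.35-fold lies within them.

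Marker genes also differed between the differentiated genotypes. In D1D2KO 6 of 9 adipocyte markers were higher (median 0.37) and 4 of 10 fibroblast markers lower (median -0.26), with the summed levels given above. All 6 smooth muscle markers were lower (median -2.39, summed log2 13.30 to 13.45 in WT and 12.01 to 12.08 in D1D2KO), and 2 of 9 macrophage markers were lower (summed log2 11.54 to 11.78 and 11.49 to 11.55). Their part in the 4 differences was not tested.

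The response to differentiation was not shown to differ by genotype for any gene of the programme. In limma's test of D1D2KO change minus WT change 0 of the 34 genes were called, against 1.46% of all genes. Of all 19938 genes 2239 had an unadjusted p under 0.05 in this test. Of the 34 genes 4 did, a similar share. These were Creld2 (-0.37, 95% confidence interval -0.65 to -0.09, adjusted p = 0.244), Dnajb9 (0.35, 0.04 to 0.66, adjusted p = 0.350), Atf3 (-0.28, -0.55 to -0.01, adjusted p = 0.410) and Edem1 (0.28, 0.06 to 0.50, adjusted p = 0.265). The difference for Ddit3 was 0.26 with an interval of -0.02 to 0.53, and for Hspa5 -0.06 with an interval of -0.29 to 0.16. Over the 34 genes the intervals reached from -0.65 to 0.66, so a difference in response of up to 1.58-fold lies within them for Dnajb9. The higher Ddit3 and Dnajb9 after differentiation are differences between differentiated cells, and no difference in response was called for either.

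Differentiation itself moved genes of the programme in both directions. In WT cells 9 of the 34 genes rose, against 14.7% of all genes, and 10 fell, against 19.4%. In D1D2KO cells 7 rose, against 15.4%, and 10 fell, against 21.2%. The shares of all genes, here and elsewhere, are not matched for signal. Of the 34 genes 33 lay above the median mean signal, where calls were more frequent. A fit of only the genes above it called 5442 in WT and 6217 in D1D2KO, against 6794 and 7311 in the fit of all genes. The transcription factors Xbp1 and Ddit3, the co-chaperone ERdj4, Edem1, Derl1, Trib3 and Ppp1r15a rose in both genotypes. PERK (Eif2ak3), Hyou1, Dnajc3, Canx and the 3 disulfide isomerases fell in both on the probe sets used. A second Pdia4 probe set rose, and the Pdia3 calls were lost in several alternative fits, as given below. The median change was -0.05 in WT and -0.10 in D1D2KO, with 0.02 and 0.01 over all genes.

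**Figure D4:**
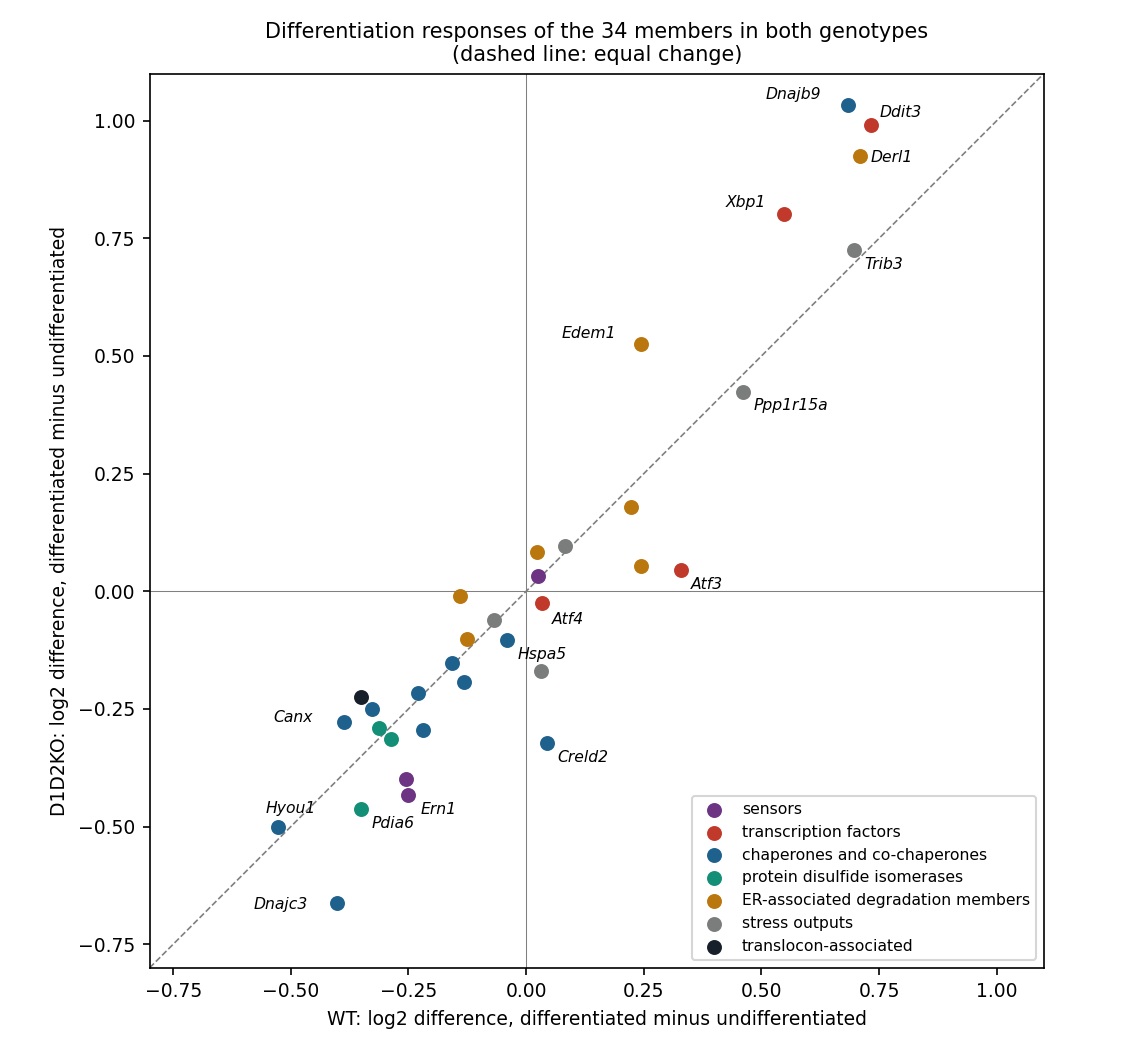
Log2 change on differentiation of the 34 genes in WT (horizontal axis) and D1D2KO (vertical axis), coloured by role, with equal change as a dashed line. In this plot 31 of the 34 genes have the same sign on both axes, Dnajb9 and Ddit3 reach furthest up at 1.03 and 0.99 in D1D2KO, and Dnajc3 furthest down at -0.66.

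The WT and D1D2KO changes come from separate samples. Across the 34 genes, which are not independent replicates, they correlated with Pearson r = 0.94 and Spearman rho = 0.89, 31 had the same sign, and 0 were called in opposite directions. The change was the larger in D1D2KO for 19 of the 34. These values, and the split of calls that follows, were not computed for all genes. They are thus not shown to be particular to the 34. In WT alone Atf3, Syvn1, Calr, Manf and Ssr1 were called, and in D1D2KO alone Ern1, Dnajb11 and Creld2, but the difference in response was called for none of these 8. This split moved with the settings. In D1D2KO Ssr1 was called with quantile normalization (adjusted p = 0.00506), Syvn1 with centring or quantile normalization (0.0473 and 0.0245), and Calr, Manf and Ssr1 with trended and robust variance moderation (0.0186, 0.0438 and 0.0362) and among genes above the median signal (0.0211, 0.0344 and 0.0303). Calr and Manf were also called there with the groups compared alone (0.0466 and 0.0175), and Calr with the mean of probe sets (0.0488). In WT Ern1 was called with trended and robust moderation (0.0463), and both Ern1 and Dnajb11 among genes above the median signal (0.0301 and 0.0415).

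Among the sensors, Eif2ak3 (PERK) fell from 7.58, 7.58 and 7.60 to 7.25, 7.34 and 7.39 in WT (-0.26, SE 0.08, adjusted p = 0.0218). In D1D2KO it fell from 7.59, 7.68 and 7.71 to 7.12, 7.33 and 7.34 (-0.40, adjusted p = 7.35e-04). Ern1 (IRE1) fell in D1D2KO, from 6.74, 6.82 and 7.04 to 6.35, 6.41 and 6.54 (-0.43, SE 0.10, adjusted p = 0.00175). In WT its change was -0.25 (adjusted p = 0.0578), from 6.80, 6.82 and 6.99 to 6.49, 6.62 and 6.74. In each of these pairs the differentiated samples lay below the undifferentiated ones. Atf6 changed by 0.03 in both genotypes without a call. The WT call of Eif2ak3 was lost when replicate 1 or 2 of undifferentiated WT or replicate 3 of differentiated WT was left out (adjusted p = 0.0630, 0.0549 and 0.0842).

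The transcription factors Ddit3 and Xbp1 were higher in every differentiated than in every undifferentiated sample of the same genotype. With the signals given above, Ddit3 rose by 0.73 in WT (SE 0.09, adjusted p = 7.28e-06) and by 0.99 in D1D2KO (adjusted p = 1.46e-07), a 1.66-fold and a 1.99-fold change. Xbp1, whose product also serves secretory cells in the absence of stress, was at 8.79, 8.79 and 8.88 in undifferentiated WT and 8.62, 8.64 and 8.72 in undifferentiated D1D2KO. It rose by 0.55 in WT (SE 0.10, adjusted p = 3.33e-04) and by 0.80 in D1D2KO (adjusted p = 4.56e-06), with no overlap in either genotype. Atf3, a stress-induced repressor and activator, was at 6.54, 6.61 and 6.79 and then 6.87, 6.95 and 7.11 in WT (0.33, adjusted p = 0.00879), a call lost without WT undifferentiated replicate 1 (0.0529) or WT differentiated replicate 3 (0.0507). In D1D2KO Atf3 overlapped between states (0.04). Atf4, the PERK-branch factor upstream of CHOP, changed by 0.03 and -0.03 without a call.

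Of the 11 chaperones and co-chaperones 1 rose and 5 fell in each genotype. The shares of all genes were 14.7% up and 19.4% down in WT, and 15.4% up and 21.2% down in D1D2KO. Dnajb9 was the one that rose, by 0.68 in WT (SE 0.10, adjusted p = 4.66e-05) and by 1.03 in D1D2KO (adjusted p = 3.09e-07). Dnajc3 fell from 10.24, 10.30 and 10.35 in undifferentiated WT by 0.40 (adjusted p = 0.00167), and from 10.21, 10.26 and 10.31 in undifferentiated D1D2KO by 0.66 (adjusted p = 1.00e-05). Both co-chaperones work with BiP, and in both genotypes they moved in opposite directions without overlap between the states.

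Hyou1, a nucleotide exchange factor of BiP, fell from 8.76, 8.82 and 8.83 to 8.20, 8.22 and 8.41 in WT (-0.53, adjusted p = 7.06e-04). In D1D2KO it fell from 8.60, 8.65 and 8.75 to 7.92, 8.17 and 8.39 (-0.50, adjusted p = 9.01e-04). The lectin chaperone calnexin (Canx) fell by 0.39 in WT and by 0.28 in D1D2KO. Its soluble partner calreticulin (Calr) fell by 0.23 in WT (adjusted p = 0.0389), a call lost in 6 of 12 fits that left out 1 sample (WT undifferentiated replicate 1 or 2, WT differentiated 1 or 3, D1D2KO undifferentiated 2, D1D2KO differentiated 2, up to 0.152) and with centring (0.0533), quantile normalization (0.0850), the groups compared alone (0.0802) or a block within the genotype (0.0923), and stood at -0.22 in D1D2KO (adjusted p = 0.0501). Manf, a secreted factor that binds BiP, fell by 0.33 in WT (adjusted p = 0.0198), a call lost when replicate 2 of undifferentiated WT or replicate 1 or 3 of differentiated WT was left out (0.0618, 0.0854 and 0.111) or with the groups compared alone (0.0569). In D1D2KO Manf was at -0.25 (adjusted p = 0.0673), and with the replicate number as a block within that genotype it was called (adjusted p = 0.0260). Dnajb11 (ERdj3) fell in D1D2KO by 0.29, a call lost without D1D2KO undifferentiated replicate 2 or D1D2KO differentiated replicate 1 (0.0685 and 0.0970), and was at -0.22 in WT. Creld2 fell in D1D2KO by 0.32, a call lost without D1D2KO differentiated replicate 1 (0.0506), and was at 0.04 in WT.

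The luminal chaperones BiP and GRP94 did not pass the test in either genotype. Hspa5 was at -0.04 in WT and -0.10 in D1D2KO, and Hsp90b1, which encodes GRP94, at -0.13 and -0.19. In D1D2KO the states of Hsp90b1 did not overlap (unadjusted p = 0.0304, adjusted p = 0.0765 by limma). It was called lower there with quantile normalization (0.0475), among genes above the median signal (0.0344) and with trended and robust variance moderation (0.0296). Hspa5 stayed between 11.16 and 11.49 in all 12 samples. Sdf2l1, a partner of ERdj3, was at -0.16 and -0.15.

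All 3 protein disulfide isomerases fell in both genotypes on the probe set with the highest mean, against 19.4% of all genes in WT and 21.2% in D1D2KO. Pdia6 fell from 11.01, 11.08 and 11.10 to 10.63, 10.66 and 10.84 in WT (-0.35, SE 0.09, adjusted p = 0.00522) and from 10.97, 11.06 and 11.07 to 10.40, 10.63 and 10.68 in D1D2KO (-0.46, adjusted p = 4.58e-04). No sample overlapped between states in either genotype. Pdia3 (ERp57), the partner of calnexin and calreticulin, was at 11.52, 11.62 and 11.71 and then 11.09, 11.37 and 11.52 in WT (-0.29, adjusted p = 0.0477). In D1D2KO it went from 11.56, 11.57 and 11.63 to 11.10, 11.31 and 11.40 (-0.31, adjusted p = 0.0293). The states of Pdia3 overlapped in WT and not in D1D2KO.

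Pdia4 (ERp72) went from 10.48, 10.50 and 10.57 to 10.02, 10.20 and 10.40 in WT (-0.31, adjusted p = 0.0156). In D1D2KO it went from 10.47, 10.47 and 10.56 to 10.10, 10.26 and 10.26 (-0.29, adjusted p = 0.0216). Of these, the Pdia6 calls were the ones kept in every fit that left out 1 sample. Pdia3 was lost in WT in 8 of 12 such fits (WT undifferentiated replicate 1 or 2, WT differentiated 1 or 3, D1D2KO undifferentiated 1, 2 or 3, D1D2KO differentiated 2, up to 0.248) and, in D1D2KO, without any of the undifferentiated D1D2KO replicates or D1D2KO differentiated replicate 1 (up to 0.143). The WT call of Pdia3 was also lost with centring (0.0660), quantile normalization (0.0731), the groups compared alone (0.0766) and a block within the genotype (0.0847), and its D1D2KO call with centring (0.0535). Pdia4 was lost in WT without WT undifferentiated replicate 1 (0.0626) or WT differentiated replicate 1 (0.0900), and in D1D2KO without undifferentiated replicate 2 (0.0840) or differentiated replicate 3 (0.0852). A second Pdia4 probe set, at a mean of 5.71 against 10.4, rose in both genotypes (0.27, adjusted p = 0.0331, and 0.51, adjusted p = 2.50e-04), so the direction of Pdia4 depends on the probe set.

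In ER-associated degradation 3 of 7 genes rose in WT, 2 of 7 in D1D2KO, and 0 fell. Among all genes 14.7% rose and 19.4% fell in WT, and 15.4% rose and 21.2% fell in D1D2KO. Derl1, a channel component for retrotranslocation, rose from 8.83, 8.84 and 8.92 to 9.31, 9.69 and 9.71 in WT (0.71, SE 0.11, adjusted p = 4.46e-05). In D1D2KO it rose from 8.84, 8.86 and 8.87 to 9.61, 9.80 and 9.94 (0.93, adjusted p = 1.69e-06). Edem1 rose from 8.64, 8.65 and 8.72 by 0.24 in WT (adjusted p = 0.0165), and from 8.53, 8.64 and 8.66 by 0.53 in D1D2KO (adjusted p = 1.82e-05). The states did not overlap for either gene. Syvn1, the ubiquitin ligase HRD1, rose by 0.22 in WT (adjusted p = 0.0463), a call lost in 9 of 12 fits that left out 1 sample (all but WT differentiated replicate 1, D1D2KO undifferentiated replicate 3 and D1D2KO differentiated replicate 3, up to 0.144) and with the groups compared alone (0.0766), the replicate block (0.0590) or a block within the genotype (0.0950), and was at 0.18 in D1D2KO. The WT call of Edem1 was lost without WT undifferentiated replicate 1 (0.0536) or 3 (0.0534) and with a block within the genotype (0.0577). Herpud1 (-0.13 and -0.10), the HRD1 partner Sel1l (-0.14 and -0.01), Derl2 (0.02 and 0.08) and Derl3 (0.24 and 0.05) were not called in WT or D1D2KO.

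Of the 5 stress outputs Trib3 and Ppp1r15a rose in both genotypes, against 14.7% of all genes in WT and 15.4% in D1D2KO. Trib3 rose from 7.97, 8.00 and 8.08 to 8.64, 8.74 and 8.76 in WT (0.70, SE 0.10, adjusted p = 4.41e-05) and from 7.79, 7.83 and 8.00 to 8.38, 8.56 and 8.85 in D1D2KO (0.72, adjusted p = 2.20e-05). Ppp1r15a rose from 6.07, 6.12 and 6.16 to 6.53, 6.58 and 6.62 in WT (0.46, adjusted p = 2.87e-04) and from 5.92, 6.06 and 6.13 to 6.35, 6.46 and 6.57 in D1D2KO (0.42, adjusted p = 5.05e-04). All differentiated samples exceeded all undifferentiated ones for both genes. Asns (-0.07 and -0.06), Chac1 (0.03 and -0.17) and Sesn2 (0.08 and 0.10) were not called. Ssr1, a subunit of the translocon-associated complex, fell from 9.79, 9.86 and 9.86 to 9.40, 9.50 and 9.57 in WT (-0.35, adjusted p = 0.00573) and was at -0.22 in D1D2KO (adjusted p = 0.0642).

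Of the 34 genes 12 were called in neither genotype, a count not computed for all genes. The uncalled intervals reached from -0.46 (Ern1) to 0.44 (Derl3) in WT and from -0.47 (Manf) to 0.35 (Syvn1) in D1D2KO. Beside the rise of the adipocyte markers, other marker lists fell too. Of 7 neural and glial markers 7 fell in WT and 5 in D1D2KO (summed log2 9.42 to 9.52 to 8.12 to 8.36 in WT, and 9.68 to 9.76 to 8.24 to 8.30 in D1D2KO). Of 6 smooth muscle markers 3 fell in WT and 6 in D1D2KO, with the summed levels given above, and of 8 cardiac and skeletal muscle markers 5 and 6 (summed log2 10.25 to 10.42 to 9.57 to 9.70, and 10.55 to 10.83 to 9.98 to 10.09). Of 5 endothelial markers 2 fell in each genotype, and of 5 epithelial markers 1 and 2. Of 9 macrophage markers 8 fell in each genotype (summed log2 12.81 to 12.88 to 11.54 to 11.78 in WT, and 12.78 to 12.86 to 11.49 to 11.55 in D1D2KO). Their part in the changes of the 34 genes was not tested.

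The 9 genes with an ERSE, whose letters are printed above, are set here against the others. On differentiation 1 of them (Syvn1) rose and 4 (Dnajc3, Calr, Canx and Pdia6) fell in WT, with a median of -0.13 and a range of -0.40 to 0.24, against 14.7% and 19.4% of all genes. In D1D2KO 0 rose and 4 (Dnajc3, Canx, Creld2 and Pdia6) fell, with a median of -0.22 and a range of -0.66 to 0.18, against 15.4% and 21.2%. Of the 21 genes whose window held no ERSE 7 rose and 4 fell in WT (median 0.02) and 6 rose and 5 fell in D1D2KO (median -0.03). In differentiated cells both genes that were lower in D1D2KO, Dnajc3 and Creld2, held an ERSE, and both that were higher, Ddit3 and Dnajb9, held none. The calls of Dnajc3 and Creld2 were lost with quantile normalization, as given above. As sets the genes differed little by genotype there. The median was -0.08 for the 9 with an ERSE, 6 of them below WT, and -0.05 for the 21 without, 12 of them below WT. The 5 genes with the amino acid response letters had 0 calls by genotype, against 8.02% of all genes in undifferentiated and 13.7% in differentiated cells. With 5 genes, 0 calls cannot be told apart from these shares. All 5 were below WT in differentiated D1D2KO cells (median -0.12), each with an interval that included 0. Of the 34 genes 21 were below WT there, and of all 19938 genes 8926. The split is a description of these genes, with no test.

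**Figure D5:**
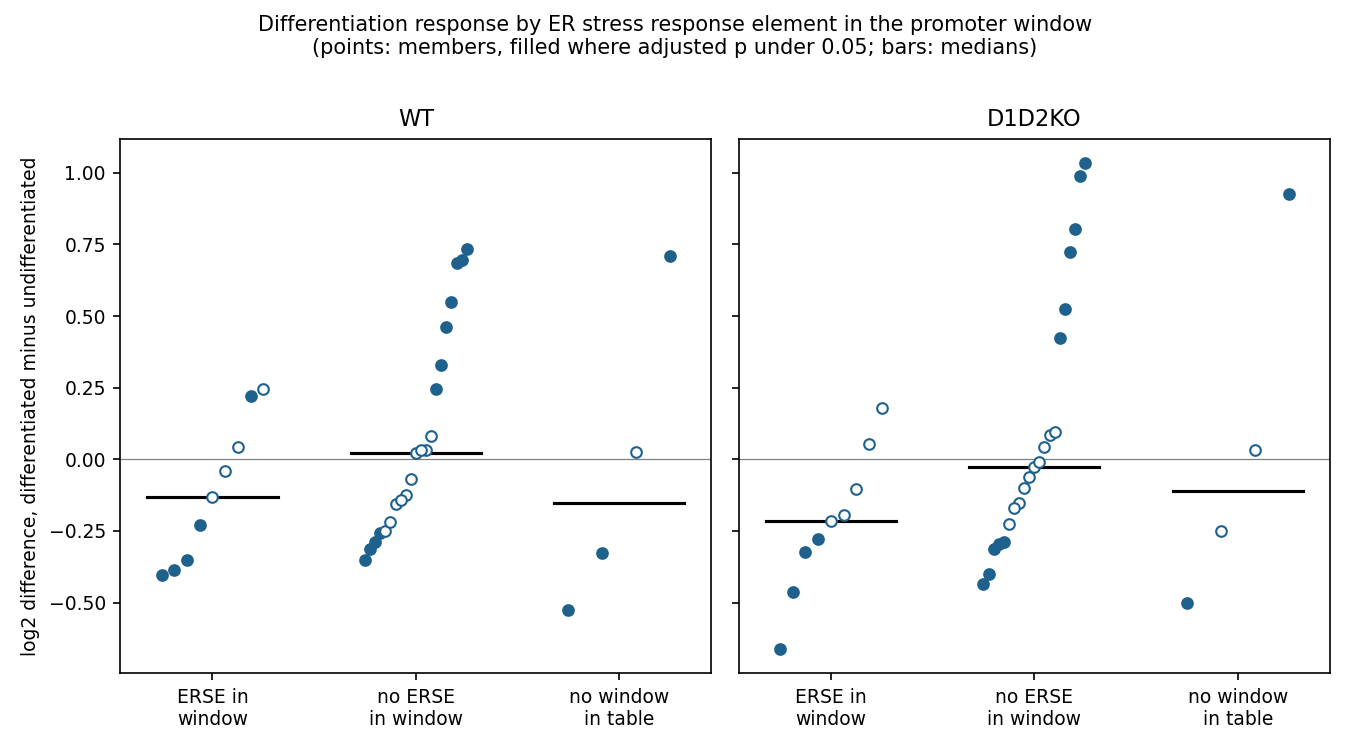
Log2 change on differentiation in WT (left) and D1D2KO (right) for genes with ERSE letters in the promoter window (9), with a window but no ERSE (21) and without a window in the table (4). Each point is a gene, filled where the adjusted p was under 0.05, and bars are medians, at -0.13 and -0.22 for the genes with an ERSE.

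The wider ER machinery was described with 7 further lists, which were not tested as sets. Their counts stand beside these shares of all genes. On differentiation 14.7% rose and 19.4% fell in WT, and 15.4% rose and 21.2% fell in D1D2KO. By genotype 8.02% were called in undifferentiated cells, and in differentiated cells 6.25% were higher and 7.42% lower in D1D2KO. Of 23 genes of the translocon, signal peptidase and N-glycosylation 1 rose and 12 fell in WT, and 1 rose and 11 fell in D1D2KO (medians -0.22 and -0.20). The channel subunit Sec61a1 fell by 0.41 and 0.47, whereas the oligosaccharyltransferase subunit Stt3b rose by 0.31 and 0.66 and was the 1 gene of the list that differed by genotype in differentiated cells (0.37, adjusted p = 0.0158). Of 22 genes of oxidative folding and the lectin cycle 4 rose and 8 fell in WT, and 3 rose and 11 fell in D1D2KO (medians -0.21 and -0.20). The glycoprotein sensor Uggt2 fell by 0.73 and 1.05. In differentiated cells 3 of these 22 were lower in D1D2KO, namely the collagen chaperone Serpinh1 (-0.48), Uggt2 (-0.38) and the isomerase Pdia5 (-0.38).

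Ero1a, the oxidase that recharges the disulfide isomerases, had the largest change of that list in both genotypes. It rose from 9.27, 9.28 and 9.37 to 10.82, 11.44 and 11.60 in WT (1.98, adjusted p = 6.41e-08) and from 8.47, 8.66 and 8.77 to 11.30, 11.67 and 11.88 in D1D2KO (2.98, adjusted p = 2.48e-10). Before differentiation it was lower in D1D2KO without overlap (-0.67, adjusted p = 0.0248), and its response was larger there (1.00, SE 0.24, adjusted p = 0.0440). In differentiated cells Ero1a was higher in D1D2KO by 0.33, which was not called, and the groups overlapped. Fkbp2 and Sil1 of the list also rose in both genotypes (0.35 and 0.60, and 0.33 and 0.31), and Mogs rose in WT (0.24); these 3 are named after their values were seen, to complete the count of rises.

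Of 22 further genes of ER-associated degradation 3 rose and 3 fell in WT and 2 rose and 5 fell in D1D2KO (medians -0.03 and -0.03). Ufd1, a cofactor of the ATPase VCP that pulls substrates out of the membrane, rose by 0.39 and 0.44. By genotype 1 of the 22 was called in differentiated cells, the VCP inhibitor Svip (0.32, adjusted p = 0.0126). Of 25 genes of ER to Golgi transport 2 rose and 5 fell in WT and 4 rose and 4 fell in D1D2KO, and 2 were lower in differentiated D1D2KO, the retrieval receptor Kdelr3 (-0.48) and the coat subunit Sec24d (-0.40).

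Of 28 genes linked to ATF4 8 rose and 6 fell in WT and 11 rose and 9 fell in D1D2KO (medians 0.00 and 0.04). Ddit4, an inhibitor of mTORC1, rose by 1.77 and 2.06. In differentiated cells 3 enzymes of the list were higher in D1D2KO, Gpt2 (0.54), Cth (0.46) and Phgdh (0.45), and the stress factor Nupr1 was lower (-0.29), as it and Shmt2 were in undifferentiated cells (-0.39 and -0.32). Of 18 genes of other sensors, processing proteases, the CREB3 family and downstream effectors 2 rose and 5 fell in each genotype. The protease Mbtps1, which cuts ATF6 in the Golgi, fell by 0.58 in WT and by 0.74 in D1D2KO, and the pro-apoptotic gene Bcl2l11 by 0.82 and 0.96. In differentiated cells the eIF2 kinase Eif2ak2 (-0.48) and Creb3l2 (-0.29) were lower in D1D2KO, and in undifferentiated cells the IRE1 paralogue Ern2 was higher (0.33).

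Of 13 cytosolic and mitochondrial heat shock genes 3 were lower in D1D2KO before differentiation and 5 after it, with 1 higher after it. Among all genes 8.02% were called in either direction before differentiation, and 7.42% lower and 6.25% higher after it. The small heat shock protein gene Hspb1 was lower by 0.50 before and 1.23 after differentiation, and Hsph1, an exchange factor of HSP70, by 0.28 and 0.46. Cryab was lower after differentiation (-0.47), and the mitochondrial chaperonin Hspd1 was higher (0.26). Hspb1 rose in WT (0.36) and fell in D1D2KO (-0.37), and this difference in response was called (-0.73, SE 0.14, adjusted p = 0.0153). Hspb1 and Cryab are also expressed in muscle, and the lower smooth muscle markers of D1D2KO are given above, their part in these differences not being tested.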

How the data were processed

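Total RNA of 12 fibroblast samples (4 groups of 3) was hybridised to single-colour arrays. The authors deposited 1 table of 35556 probe sets, whose values, between 1.15 and 14.2, were taken as log2 signals. The base was inferred from the values. The authors' summarisation and normalization are not given in the sources used here. A low signal cannot be told from background. Of the probe sets 21789 had 1 annotated gene, 1621 had several and 12146 were not listed and were left unnamed. For 999 genes with several probe sets the one with the highest mean was used, which left 19938 genes.

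All 12 samples entered 1 limma fit (version 3.58.1, R 4.3.3, lmFit and eBayes, 4 group means) with 5 two-sided contrasts. Groups came from the sample titles. The model was also run on simulated data, where the condition to pass was on the mean estimate alone. The differences simulated were larger than the genotype differences called among the 34 genes, so the run says nothing about calls of that size. No 2 columns were identical. The number of arrays limits the precision. The genes, their roles, the further lists and the marker lists were chosen with earlier results of these data known. By rule all 34 genes are named, with values in each sample where a genotype contrast was called and for the 2 largest called changes of each role, and up to 3 called genes of each further list, those with the largest change, may be named for each of the 5 contrasts. Atf3, Atf4, Hspa5, Derl3 and Ero1a are shown by sample in addition, chosen after their values were seen.

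Deviations from group means correlated above 0.1 for all 3 equal replicate numbers only between undifferentiated and differentiated D1D2KO cells (0.101 to 0.176, against -0.147 to 0.0522 for unequal numbers). Deviations within a group cancel for each gene, so the values for equal and unequal numbers are not independent, and whether the numbers pair samples is not known. The main fit and its p-values treat samples as unpaired, and the replicate number entered as a block only in alternative fits. As alternatives, arrays were centred or quantile normalized, genes were limited to those above the median signal, probe sets of a gene were averaged or all tested, eBayes was trended and robust, the fit was limited to the groups compared, a 2-fold minimum or a replicate block was added, and each sample was left out in turn. Promoter windows are RefSeq's (GRCm38.p6).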

Additional observations from a re-analysis of the deposited data

Results flagged for a closer look

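For 3 genes outside the 34 the response to differentiation differed between the genotypes by limma's test of the difference itself. Ero1a, the oxidase of the disulfide isomerases, rose by 1.98 in WT and 2.98 in D1D2KO, a difference of 1.00 (SE 0.24, adjusted p = 0.0440). Before differentiation Ero1a was lower in D1D2KO (-0.67), and in differentiated cells it was higher there by 0.33, which was not called. Hspb1, a small heat shock protein gene, changed by 0.36 in WT and -0.37 in D1D2KO, a difference of -0.73 (SE 0.14, adjusted p = 0.0153). Dgat2, which the knockout targets, rose by 4.27 in WT and by 3.07 in D1D2KO, which gives -1.20 (SE 0.18, adjusted p = 0.00271).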

How the results depend on the processing

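Of 3429 values of single genes under 21 alternative settings, 3274 kept their side of the threshold and, where called, their direction, 115 called ones were no longer called and 39 uncalled ones became called, while 119 uncalled values changed sign and stayed uncalled. The 1 reversed value was Pdia4 on differentiation in D1D2KO, at 0.11 with the mean of its probe sets. A 2-fold minimum left 0 genes higher and 0 lower on differentiation in WT, 1 and 0 in D1D2KO, and 0 and 0 between differentiated genotypes. Between differentiated genotypes quantile normalization left 0 genes lower, and the fit of the groups compared alone left 1 higher and 0 lower. Leaving out 1 sample at a time gave 6 to 9 higher and 6 to 12 lower in WT, 7 to 8 and 7 to 12 in D1D2KO, 0 to 1 higher and 0 lower between undifferentiated genotypes, 0 to 2 higher and 0 to 3 lower between differentiated genotypes, and 0 for the difference in response. With the replicate number as a block over all samples the counts were 8 higher and 10 lower in WT, 7 and 10 in D1D2KO, 0 between undifferentiated and 2 and 2 between differentiated genotypes, the 1 call lost being Syvn1 in WT (adjusted p = 0.0590). A block within each genotype, chosen after seeing the data, gave 7 and 8 in WT and 7 and 11 in D1D2KO. The fit of the groups compared alone does not apply to the difference in response, which needs all 4 groups. Except where fewer samples or genes were fitted, the cause of a changed call was not tested. The arrays carry no detection calls, so signals such as those of Derl3, below the array median, cannot be set against background.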
